A study of Mus musculus with 8 samples.

Results

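The genes described here are 8 adhesion molecules at the cell surface: *Icam1*, *Vcam1*, *Alcam*, *Mcam* and *Ncam1* of the immunoglobulin (Ig) superfamily and the cadherins *Cdh2*, *Cdh11* and *Cdh13*. They were taken by name from a table of 54658 gene names with read counts, and all 8 were found in it. RNA-Seq was done on primary articular chondrocytes, freed by collagenase from femoral head cartilage of wild-type mice aged 3 weeks and grown in culture plates. The cells received the proinflammatory cytokine IL-1β at 1 ng/mL for 24 h in 4 samples and vehicle in 4 samples. The comparison asks how chondrocytes respond to an inflammatory cytokine linked to osteoarthritis.

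Ig superfamily adhesion molecules carry Ig-like domains outside the cell and bind either integrins on other cells or each other, and several of them tether leukocytes to inflamed endothelium. Classical cadherins bind the same cadherin on a neighbouring cell in the presence of calcium and are tied to actin through β-catenin and α-catenin. N-cadherin and NCAM are known from the condensation of mesenchymal cells that precedes cartilage, and cadherin-11 is known from the synovial lining.

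Levels are TMM-scaled CPM, that is counts relative to the size of the library after scaling, given per sample in the order of the replicate numbers and as means ± SD (n = 4). The samples held 10992355 to 17104351 reads in the IL-1β group and 13970959 to 17456063 reads in the vehicle group, so that 3 counts, taken as the smallest abundance shown, were 0.172 to 0.273 CPM. Log2 fold changes are IL-1β over vehicle, with the standard error (SE) and the Benjamini-Hochberg adjusted p-value of edgeR's quasi-likelihood test over 14404 genes, those that exceeded 1 CPM in 4 samples or more. No source states whether the samples of a group were separate cultures or animals, so these p-values measure the spread between the samples, which may be technical. In bulk RNA, fewer cells of a type and less RNA per cell cannot be told apart.

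Of the 8 genes, 7 passed the filter on low counts and *Mcam* did not. IL-1β raised *Cdh11*, *Alcam*, *Icam1* and *Cdh2* past 2-fold and raised *Ncam1* by a small amount, while *Vcam1* and *Cdh13* did not pass the test and no gene of the 7 was called lower. The 5 of 7 called higher stand beside 20.4% of all genes tested, and the 0 called lower stand beside 19.8%. The 4 that rose past 2-fold stand beside 2.86% of all genes, and 2.35% of all genes fell past 2-fold. The 4 samples with IL-1β lay entirely above the 4 with vehicle in the same 5 genes, which was so in 18.7% of all genes tested, and 18.2% of all genes lay entirely below. With groups that do not overlap, an exact two-sided permutation test can only give p = 0.0286, the smallest for 4 against 4 samples. This p of the 5 genes therefore adds nothing to their separation.

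**Figure D1:**
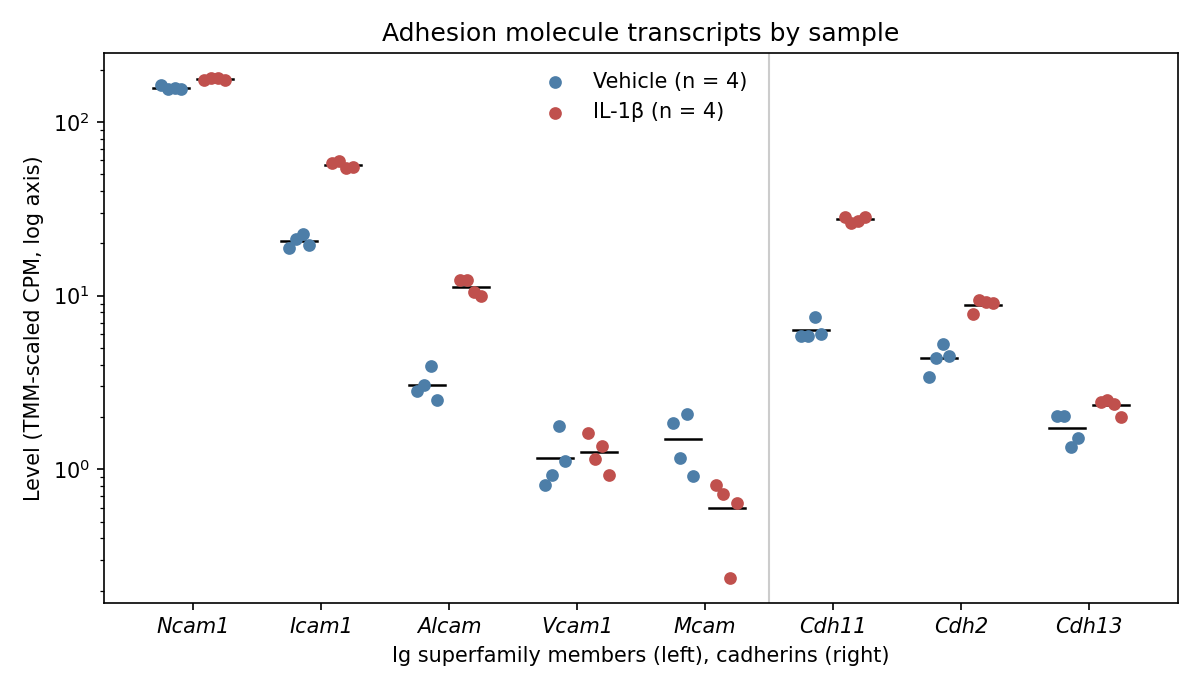
Level of each adhesion gene in each of the 8 samples (TMM-scaled CPM, log axis), with vehicle and IL-1β in different colours and the mean of each group as a line. *Ncam1* was at 154 to 164 CPM with vehicle and 175 to 179 CPM with IL-1β. *Icam1*, *Alcam*, *Cdh2* and *Cdh11* also separated with IL-1β above, and *Mcam* separated with IL-1β below. *Vcam1* and *Cdh13* overlapped between 0.808 and 2.52 CPM.

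*Icam1* encodes a ligand of the leukocyte integrins LFA-1 and Mac-1 and is a common marker of cytokine activation in stromal and endothelial cells. Its level was 57.8, 59.3, 54.6 and 54.7 CPM with IL-1β and 18.8, 21.3, 22.7 and 19.6 CPM with vehicle. Each treated sample was more than 2-fold above every control. It rose from 20.6 ± 1.77 to 56.6 ± 2.31 CPM, a fold change of 2.75 (log2 fold change 1.46, SE 0.0547, adjusted p = 5.52e-19), and *Icam1* had the 224th largest rise of the 14404 genes. The gene lies on the plus strand at chr9:21015985-21028817 (GRCm38). An antisense gene, *Gm47079*, overlaps 11.7% of its exon bases but held only 0 to 7 reads per sample, against 298 to 920 for *Icam1*.

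The promoter of *Icam1* is shown because its transcript was both abundant and raised by IL-1β, and because a RefSeq window was given for it. Such windows (GRCm38.p6, 250 bases before to 50 after the start) were given for 3 of the 8 genes, *Icam1*, *Alcam* and *Mcam*. The 250 bases before the RefSeq start of *Icam1*, chr9:21015690-21015939 on the plus strand, are printed with matches to a κB-like motif and to the GAS motif in capitals.
Icam1: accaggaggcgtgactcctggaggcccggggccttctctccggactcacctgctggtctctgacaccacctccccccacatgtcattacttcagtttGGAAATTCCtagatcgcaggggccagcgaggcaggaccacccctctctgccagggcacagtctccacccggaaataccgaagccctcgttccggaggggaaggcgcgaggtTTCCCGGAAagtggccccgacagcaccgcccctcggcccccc
The first match is to GGAANTTCC, at -153 to -145 from the start. This motif is a variant of the κB consensus that was chosen after the sequence was seen, and 0.928% of 32851 promoter windows hold it on either strand. The second match is to GAS, the letters TTCNNNGAA bound by STAT dimers, at -42 to -34, and 8.30% of windows hold it. A TATA box, TATAAA, matched at 14 to 19 bases after the RefSeq start (13.6% of windows). All these positions count from that start, 21015940. It lies upstream of the gene start given above, 21015985, from which each match would have another position. The κB consensus (8.46% of windows), the AP-1 motif TGANTCA (7.81%) and the C/EBP motif TTGCNNAA (10.8%) had no match on either strand in this window. In the windows of *Alcam* and *Mcam*, none of the 6 motifs matched. These are matches of letters and no measure of binding.

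*Vcam1*, the endothelial ligand of the integrin α4β1, was scarce in both groups. Its level was 1.62, 1.15, 1.37 and 0.922 CPM with IL-1β and 0.808, 0.924, 1.78 and 1.12 CPM with vehicle, from 13 to 25 reads per sample. The groups overlapped, and the highest value of all was a vehicle sample. The means, 1.27 ± 0.299 CPM treated and 1.16 ± 0.436 CPM control, differed by less than their spread (log2 fold change 0.15, SE 0.275, adjusted p = 0.722; exact permutation p = 0.6). The 95% interval of the fold ran from 0.749 to 1.64, which leaves out a rise of the size seen in *Icam1* but holds smaller changes in both directions. The smallest change detectable at this depth was not worked out. *Vcam1* lies at chr3:116109949-116129688 on the minus strand.

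*Alcam* encodes the partner of the T-cell receptor CD6 and also binds itself between cells. It was at 12.3, 12.3, 10.5 and 9.93 CPM with IL-1β and at 2.83, 3.06, 3.92 and 2.5 CPM with vehicle. All 4 treated samples exceeded the highest control by more than 2-fold. *Alcam* rose from 3.08 ± 0.609 to 11.3 ± 1.23 CPM, a fold change of 3.66 (log2 fold change 1.87, SE 0.13, adjusted p = 9.79e-13), and ranked 137 among the rises of all genes tested. It lies at chr16:52248996-52454074 on the minus strand, and its exons overlap no other gene.

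*Mcam* (CD146), an adhesion receptor known from endothelial cells, pericytes and melanoma, had the opposite pattern at a very low level. It was at 0.811, 0.721, 0.238 and 0.638 CPM with IL-1β and at 1.85, 1.16, 2.07 and 0.920 CPM with vehicle. In reads, these were 9, 10, 4 and 9 against 32, 20, 29 and 14. The groups did not overlap, with the vehicle samples above. The means were 0.602 ± 0.253 and 1.5 ± 0.547 CPM, a ratio of 0.402. The exact permutation p of 0.0286, the smallest possible, follows from the separation and adds nothing to it. *Mcam* was above 1 CPM in 3 samples, all of them vehicle, and therefore was not tested with the other genes. With no filter at all, where edgeR set the spread of each gene wholly to the common trend, the log2 fold change was -1.36 (adjusted p = 0.000128, and 9.02% of 32379 genes were called lower). The gene lies at chr9:44134469-44142727 on the plus strand.

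*Ncam1* encodes the neural cell adhesion molecule, which binds itself on neighbouring cells and interacts with FGF receptors. It was at 175, 179, 178 and 175 CPM with IL-1β and at 164, 154, 157 and 155 CPM with vehicle. The samples within a group lay close together, with a coefficient of variation of 1.04% with IL-1β and 2.78% with vehicle, and the groups were separate. *Ncam1* rose from 157 ± 4.37 to 177 ± 1.84 CPM, a fold change of 1.12 (log2 fold change 0.17, SE 0.0298, adjusted p = 3.22e-05). This was the smallest of the called changes in the gene with the most reads of the 8, 1945 to 3003 per sample, and only 6.38% of the genes tested had a higher mean CPM. Its log2 fold change was 0.17 with DESeq2 size factors and 0.16 with total counts in place of TMM. *Ncam1* lies at chr9:49502136-49798925 on the minus strand, and 4.81% of its exon bases overlap *Gm11149* on the other strand, which held 11 to 23 reads.

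*Cdh2* encodes N-cadherin. It was at 7.84, 9.38, 9.15 and 9.08 CPM with IL-1β and at 3.40, 4.39, 5.28 and 4.47 CPM with vehicle. The lowest treated sample was above the highest control. *Cdh2* rose from 4.39 ± 0.767 to 8.86 ± 0.692 CPM, a fold change of 2.05 (log2 fold change 1.03, SE 0.124, adjusted p = 6.75e-08). Its 95% interval, 0.78 to 1.29 on the log2 scale, spanned the 2-fold threshold, and without vehicle replicate 1 the log2 fold change was 0.92, short of 2-fold. Against a log2 fold change of 1 as the null (glmTreat), 3 of the 4 genes past 2-fold were called. *Cdh2* lies at chr18:16588877-16809246 on the minus strand.

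*Cdh11*, which encodes cadherin-11 (OB-cadherin), had the largest rise of the 7 genes tested. It was at 28.3, 26.3, 26.8 and 28.4 CPM with IL-1β and at 5.83, 5.84, 7.49 and 6.05 CPM with vehicle. Vehicle replicate 3 stood above the other vehicle samples and far below every treated sample. The means were 27.5 ± 1.05 and 6.30 ± 0.799 CPM, a fold change of 4.38 (log2 fold change 2.13, SE 0.0841, adjusted p = 1.86e-18), and *Cdh11* ranked 108 among the rises of the 14404 genes. Without vehicle replicate 3 the log2 fold change was 2.21. *Cdh11* lies at chr8:102632095-102785642 on the minus strand.

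*Cdh13* encodes T-cadherin, a cadherin anchored to the membrane by a lipid, without the tail that binds catenins, and a receptor of adiponectin. It was at 2.43, 2.52, 2.38 and 1.99 CPM with IL-1β and at 2.02, 2.02, 1.35 and 1.51 CPM with vehicle. The groups overlapped through IL-1β replicate 4. The means were 2.33 ± 0.237 and 1.73 ± 0.345 CPM, from 19 to 40 reads per sample. The log2 fold change was 0.41 (SE 0.198) with a 95% interval of 0.00 to 0.82, and neither the adjusted p-value of 0.104 nor the exact permutation p of 0.0857 passed 0.05. *Cdh13* lies at chr8:118283733-119324921 on the plus strand.

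**Figure D2:**
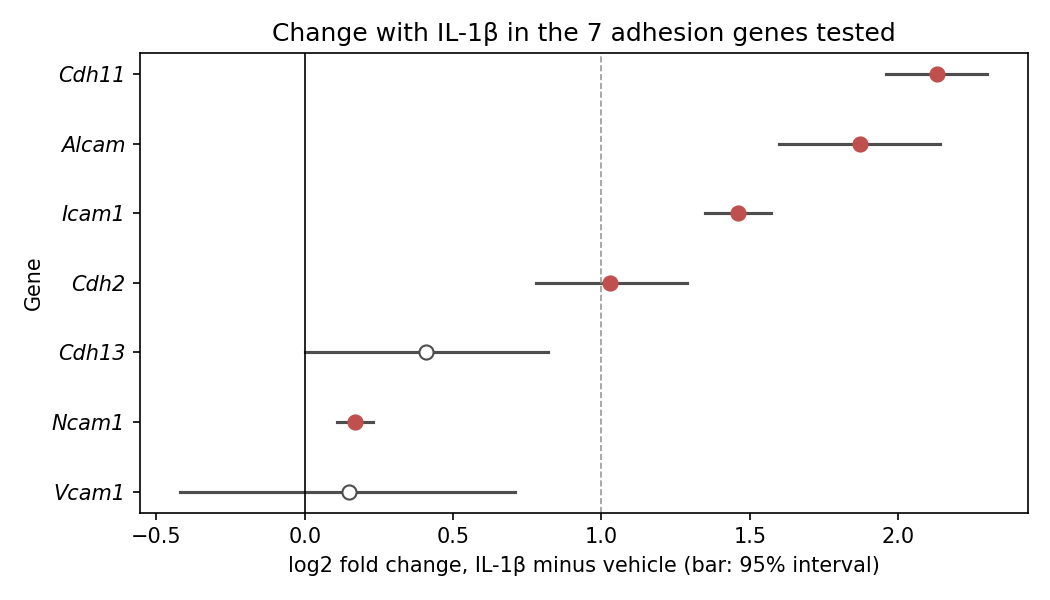
Log2 fold change of the 7 adhesion genes tested, IL-1β minus vehicle, with the 95% interval as a bar, filled points for adjusted p under 0.05 and a dashed line at 2-fold. The intervals of *Cdh11*, *Alcam* and *Icam1* lay wholly beyond 2-fold, that of *Cdh2* (0.78 to 1.29) crossed it, and *Vcam1* and *Cdh13* were not called.

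Levels of different genes were compared only per kilobase of the listed exon length. With vehicle the order was *Ncam1* (18.2 CPM per kb), *Icam1* (4.73), *Cdh11* (0.707), *Cdh2* (0.544), *Mcam* (0.447), *Alcam* (0.432), *Cdh13* (0.154) and *Vcam1* (0.131). In this order *Cdh2* and *Mcam* overlapped, as did *Mcam* and *Alcam*, and *Cdh13* and *Vcam1*. With IL-1β the order was *Ncam1* (20.4 CPM per kb), *Icam1* (13), *Cdh11* (3.09), *Alcam* (1.58), *Cdh2* (1.10), *Cdh13* (0.207), *Mcam* (0.180) and *Vcam1* (0.143). There each of the first 5 genes was separate from its neighbours, and the last 3 overlapped their neighbours. The mean of *Alcam* was thus below that of *Cdh2* with vehicle and above it with IL-1β. With vehicle the samples of *Alcam* (0.351 to 0.551 CPM per kb) and *Cdh2* (0.422 to 0.654) overlapped.

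The composition of each family shifted accordingly, described here with no test, since a rise of one gene lowers the share of the others. Of the reads per length of the 5 Ig superfamily genes, *Ncam1* held 76.0 ± 2.07% with vehicle and 57.9 ± 1.24% with IL-1β. The share of *Icam1* was 19.8 ± 1.51% with vehicle and 36.8 ± 0.689% with IL-1β, and that of *Alcam* was 1.80 ± 0.313% and 4.47 ± 0.394%. Over reads not divided by length, the share of *Icam1* was 11.2% and 22.9%. Their sum was 23.9 ± 0.700 CPM per kb with vehicle and 35.3 ± 0.814 CPM per kb with IL-1β, a ratio of 1.48.

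Among all 23 genes named Cdh and a number, *Cdh11* held 17.5 ± 1.86% of the reads per length with vehicle and 45.1 ± 2.22% with IL-1β. The share of *Cdh2* overlapped between the groups (13.4 ± 1.71% and 16.1 ± 1.33%), as did that of *Cdh13* (3.84 ± 0.977% and 3.03 ± 0.297%). The other 20 cadherins together held 65.3 ± 2.70% with vehicle and 35.8 ± 2.09% with IL-1β. The sum over the cadherins was 4.05 ± 0.258 and 6.85 ± 0.148 CPM per kb, a ratio of 1.69. *Cdh11* was therefore the most abundant cadherin per length with IL-1β. With vehicle *Cdh24* had a higher mean share, 20.9 ± 4.07% of the pool, and overlapped *Cdh11*. The share of *Cdh22* with vehicle (14.3 ± 1.86%) also overlapped that of *Cdh11*.

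**Figure D3:**
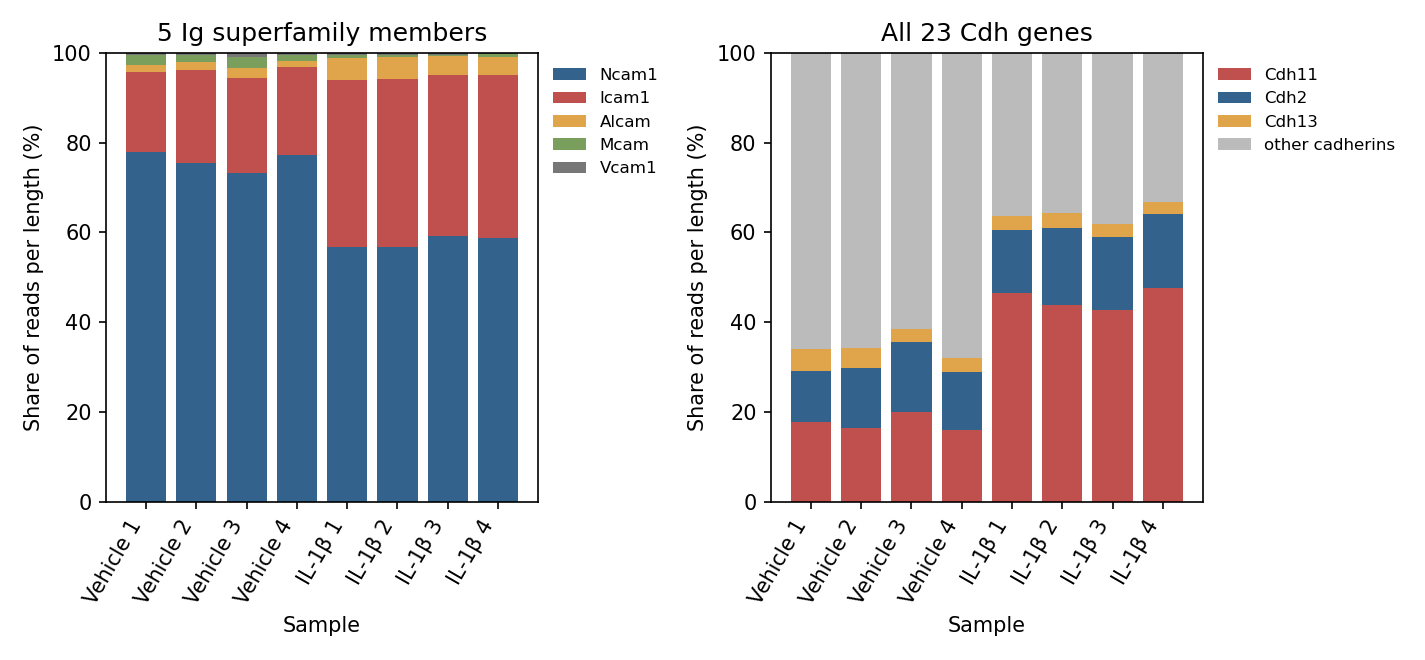
Share of each gene in the reads per length of the 5 Ig superfamily genes and of all 23 Cdh genes (percent, one stacked bar per sample). *Icam1* held 19.8% of the first pool with vehicle and 36.8% with IL-1β, and *Cdh11* held 17.5% and 45.1% of the second.

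The remaining 20 cadherins were mostly scarce, and 4 of them passed the filter. Of these, *Cdh23*, the tip-link cadherin of the inner ear, rose from 1.93 ± 0.437 to 6 ± 0.704 CPM (log2 fold change 1.65, SE 0.163, adjusted p = 1.72e-09). The other 3 did not pass the test, with log2 fold changes of -0.26 for *Cdh10*, -0.32 for *Cdh24* and 0.17 for *Cdh22*. *Cdh7*, *Cdh8*, *Cdh9* and *Cdh12* had no read in any sample. The median log2 fold change of the 4 was -0.05, beside -0.00120 over all genes tested. Calls in this and the following lists stand beside 20.4% of all genes called higher and 19.8% called lower. Past 2-fold these shares were 2.86% and 2.35%.

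Of 15 catenins and other junction partners, 10 were tested, with 1 called higher, 4 lower and 5 not called (median log2 fold change -0.08). *Ctnnb1*, which encodes the β-catenin that binds cadherin tails, fell from 439 ± 4.59 to 369 ± 9.03 CPM (log2 fold change -0.25, SE 0.0305, adjusted p = 8.91e-08). *Afdn*, the actin linker of nectins, rose by 0.16 on the log2 scale (adjusted p = 0.000479). *Ctnna1* and *Ctnnd1*, the α-catenin and p120-catenin genes, were not called, at log2 fold changes of -0.06 and 0.07. The other 3 genes called lower, named after their values were seen, were *Jup* (log2 fold change -0.83), *Plekha7* (-0.59) and *Vcl* (-0.44). None of the 10 changed past 2-fold.

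Of 30 further Ig superfamily adhesion molecules, 16 were tested, with 5 called higher, 5 lower and 6 not called (median log2 fold change -0.03). *Clmp*, a junctional relative of the coxsackievirus and adenovirus receptor, rose from 16.1 ± 0.593 to 77.6 ± 2.67 CPM (log2 fold change 2.26, SE 0.0482, adjusted p = 6.32e-25). *Nectin2* rose from 9.18 ± 1.09 to 22.7 ± 1.67 CPM (log2 fold change 1.30, adjusted p = 3.53e-13). *Bcam*, a receptor of laminin α5, fell from 8.09 ± 0.849 to 2.84 ± 0.959 CPM (log2 fold change -1.48, adjusted p = 6.04e-09). *Cntn1* fell from 2.69 ± 0.454 to 0.709 ± 0.109 CPM (log2 fold change -1.93). It passed the filter only through the vehicle samples, so its adjusted p is not given. Where all 8 samples had to exceed 1 CPM, 4 genes of this list were called lower. Changes past 2-fold thus went in both directions, with 2 genes each, *Cntn1* being 1 of those lower.

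Of 13 counter-receptors and ligands of the 8 genes, 5 were tested, with 3 called higher and 2 lower (median log2 fold change 0.22). The α chain genes of the leukocyte integrins that bind ICAM-1 were near the smallest abundance shown, with 0 to 5 reads per sample for *Itgal* and 0 to 3 for *Itgam*. Their shared β chain gene, *Itgb2*, had 3 to 17 reads, at 0.969 ± 0.375 CPM with IL-1β and 0.279 ± 0.131 CPM in controls. The groups of *Itgb2* overlapped, and it was not tested. *Itga4*, the α chain of the usual partner of VCAM-1, had 0 to 5 reads, and *Cd6*, the partner of ALCAM, had 0 to 1. *Itgb7* rose (log2 fold change 1.30, adjusted p = 3.48e-15), and *Fgfr1*, whose product interacts with NCAM, rose from 199 ± 4.44 to 232 ± 8.90 CPM (log2 fold change 0.22, adjusted p = 2.58e-06). *Lama4*, a laminin chain that binds MCAM, fell from 27.8 ± 0.891 to 16.0 ± 0.611 CPM (log2 fold change -0.79, adjusted p = 9e-12). *Itgb1*, at 461 ± 16.4 against 489 ± 6.32 CPM, was called lower by a log2 fold change of only -0.08 (adjusted p = 0.032), and this list had 1 call lower instead of 2 without IL-1β replicate 3 or 4 or without vehicle replicate 2 or 4.

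All 15 genes of ectodomain shedding, by proteases that cut many adhesion molecules at the membrane, were tested, with 7 called higher, 1 lower and 7 not called (median log2 fold change 0.11). *Rhbdf2*, which encodes the iRhom2 that brings the protease ADAM17 to the cell surface, rose from 49.1 ± 1.57 to 117 ± 4.66 CPM (log2 fold change 1.25, SE 0.0398, adjusted p = 1.15e-20). *Adam9* rose by 0.19 on the log2 scale, and *Ncstn* was not called (0.04). *Adam17* itself, named after its value was seen, rose by 0.30 (adjusted p = 2.27e-07), and the gene called lower was *Adam15* (log2 fold change -0.50). The list had 2 calls lower without vehicle replicate 1 or without vehicle replicate 2, and 5 calls higher instead of 7 without vehicle replicate 1.

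Among 5 linkers of adhesion molecules to actin, 2 were called higher, 1 lower and 2 not called (median log2 fold change -0.07). *Msn*, the moesin gene, rose from 425 ± 6.85 to 611 ± 8.88 CPM (log2 fold change 0.53), *Actn1* rose by 0.29 on the log2 scale, and *Actn4* fell from 397 ± 5.97 to 286 ± 15.7 CPM (log2 fold change -0.47). *Rdx* was not called (-0.07). The list had 3 calls lower without vehicle replicate 4.

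Of 6 transcription factors known from switches between cadherins, 5 were tested, with 2 called higher, 1 lower and 2 not called (median log2 fold change -0.08). *Zeb2* rose from 33.5 ± 2.03 to 91.6 ± 2.75 CPM (log2 fold change 1.45, SE 0.0444, adjusted p = 4.11e-21), and *Snai2* fell from 89.4 ± 2.26 to 43.5 ± 1.37 CPM (log2 fold change -1.04, SE 0.0404, adjusted p = 1.34e-18). *Zeb1* was not called (-0.08). *Snai1* was called higher by 0.17 (adjusted p = 0.014), and 1 gene instead of 2 was called higher by DESeq2, without IL-1β replicate 3 or without vehicle replicate 3. No gene of the 5 selectins and their ligands or of the 2 polysialyltransferases that modify NCAM passed the filter. Of the latter, *St8sia4* was at 0.838 ± 0.185 CPM in vehicle samples and 0.528 ± 0.149 CPM in treated ones, and the groups overlapped.

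**Figure D4:**
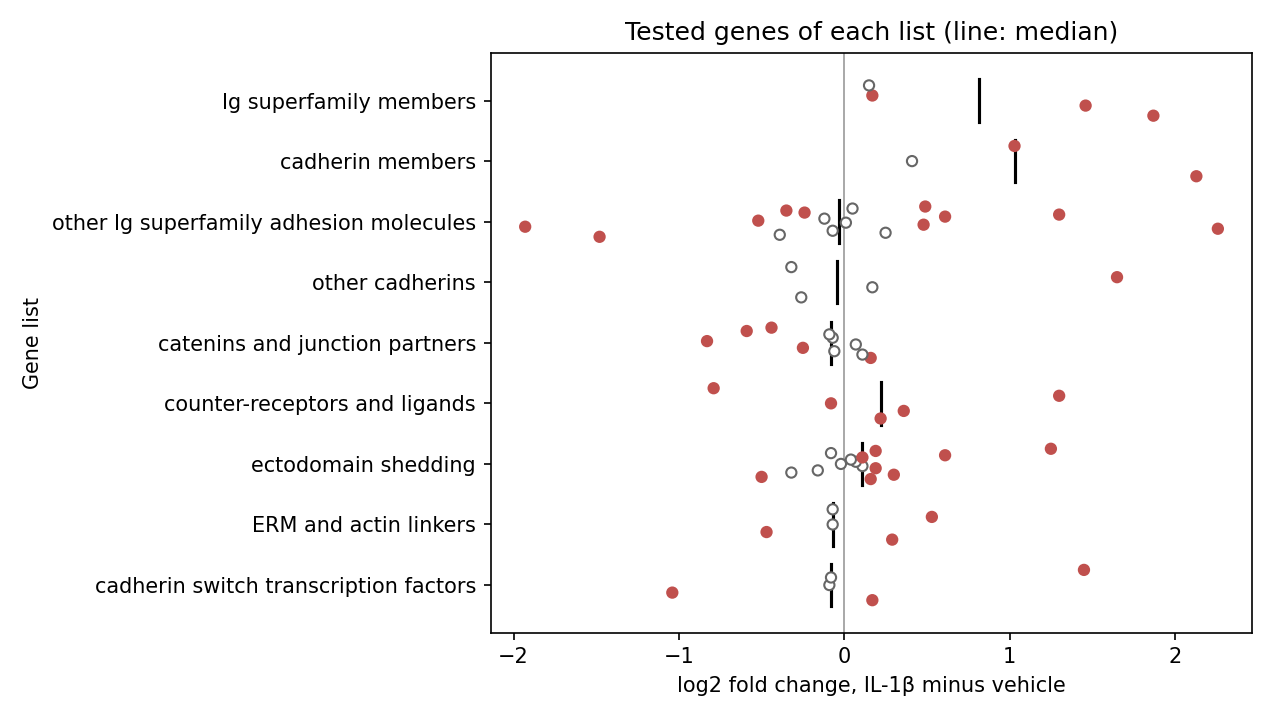
Log2 fold change, IL-1β minus vehicle, of each tested gene of the adhesion lists, 1 point per gene and 1 row per list, with filled points for adjusted p under 0.05 and a short line at the median of each list. *Cdh11* (2.13) and *Clmp* (2.26) lay farthest to the right, and the catenins and junction partners stayed within 2-fold.

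Markers of cell types were examined beside these changes. The chondrocyte markers were abundant in both groups, and all 10 fell past 2-fold, from a sum of 16155 to 16776 CPM with vehicle to 4194 to 4606 CPM with IL-1β. The 8 endothelial markers summed to 1.99 to 2.61 CPM with IL-1β and 1.33 to 2.37 CPM with vehicle, with 0 to 9 reads for *Pecam1* and 0 to 2 for *Cdh5*. The 10 leukocyte and macrophage markers summed to 30.1 to 34.1 CPM with IL-1β and 15.2 to 17.5 CPM with vehicle. *Cd68* (15 ± 1.56 CPM with IL-1β, 9.48 ± 0.73 CPM with vehicle) and *Cd14* (14 ± 0.428 and 3.85 ± 0.395 CPM) rose and made up most of it. *Lyz2* fell, while *Ptprc* had 0 to 6 reads and *Adgre1* 0 to 3. Of the 7 fibroblast and synovial markers, 3 rose, *Prg4* among them, and 1 fell. Their sum went from 1008 to 1059 CPM in the controls up to 2134 to 2255 CPM in the treated samples. *Prg4* alone made up most of it, rising from 856 ± 21.7 to 2010 ± 47.1 CPM. *Pdgfra* and *Cd34* also rose (log2 fold changes 0.58 and 0.76), *Col3a1* fell (-0.34) and *Col1a1* was not called (-0.10). *Thy1* had 0 to 11 reads per sample and *Dpt* 0 to 2. The 7 mural markers summed to 497 to 560 CPM with IL-1β and 1030 to 1110 CPM with vehicle, with 3 lower of 3 tested. Most of this sum was *Cspg4* (409 ± 21.5 CPM with IL-1β, 819 ± 29.4 CPM with vehicle) and *Pdgfrb* (115 ± 6.66 and 240 ± 3.88 CPM). *Myh11*, *Tagln*, *Rgs5* and *Des* had 0 to 8 reads per sample. The osteoblast markers summed to 116 to 134 CPM and 232 to 238 CPM, with 6 lower of 6 tested, and the neural markers to 16.6 to 18.9 CPM and 20.9 to 24.7 CPM, with 2 lower of 4. The part of the fibroblast and synovial, macrophage or mural markers in the changes of the 8 adhesion genes was not tested.

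For each of the 8 genes, the tested genes with the most similar pattern over the 8 samples were found by the root mean square (RMS) difference of log2(CPM + 0.5), each gene centred on its mean, as a description. *Icam1* was nearest to *Ptgs1* (RMS difference 0.0576), *Phlda1* (0.0599) and *Cd44* (0.0615). *Alcam* was nearest to *Cd14* (0.114), *Htr2a* (0.129) and *Stac2* (0.132). *Cdh11* was nearest to *Tlr2* (0.0960) and *Ampd3* (0.0969).

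*Cdh2* was nearest to *Ecm1* (RMS difference 0.0943), *Il1rl1* (0.0972) and *H6pd* (0.0996), and *Ncam1* to *Dlg1* (0.0184), *Uhrf1bp1l* (0.0211) and *Gak* (0.0222). The nearest genes of the others were *Gm37728*, *Gm19196* and *Nhs* for *Vcam1*, *Ankrd13d*, *Zfp959* and *Cep162* for *Cdh13*, and *Gm43672*, *Gm26945* and *Pde1b* for *Mcam*. With few reads the differences were larger, up to 0.265 for *Pde1b* and *Mcam*. No gene among the 8 was among the 3 nearest of another.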

How the data were processed

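Reads were trimmed (cutadapt), aligned to mm10 (STAR, version 2.4.2a in the submitters' processing notes) and counted per gene (featureCounts) by the authors. The values the authors deposited are whole-number counts per gene name, with a column of gene lengths (unit: other). Whether these counts precede the batch correction with RUVseq named in the methods, and whether counting used strand, is not given in the sources used here. The 8 genes and the lists were chosen with earlier results of these data known.

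TMM factors scaled the counts, and the quasi-likelihood test of edgeR 4.0.16 in R 4.3.3 compared the treatments with no other term, among genes exceeding 1 CPM in 4 or more samples. Calls had a Benjamini-Hochberg adjusted p-value under 0.05, and "past 2-fold" added a log2 fold change above 1 or below -1. The code was tested on simulated data. Single genes were also tested by exact two-sided permutation of log2(CPM + 0.5). Intervals are at 95% and, like the 3-count floor, cover no error beyond these samples and counting, as reads that carry no molecular identifiers may repeat a molecule.

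From each list, the genes past 2-fold with at least 1 CPM in the higher group were named, and those with the highest CPM until 4 were named. Others are marked as named after their values were seen, and 2 genes that the rules would name are not reported here. The replicates of a group differed by more than sampling noise (chi-square per degree of freedom 1.98 to 6.34). Positions come from GENCODE vM21 (GRCm38), whose exon lengths equalled the listed ones for all 8 genes, and promoters from RefSeq. Alternatives were DESeq2 1.42.0, its size factors, total counts, other filters, a replicate block, 1 RUVs factor, glmTreat, a stricter fold threshold, reads not divided by length, another pseudocount and each sample left out.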

Additional observations from a re-analysis of the deposited data

Results flagged for a closer look

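The level of *Cdh11* in vehicle replicate 3, 7.49 CPM, stood apart from the other 3 vehicle samples at 5.83 to 6.05 CPM. Its gap to the nearest of them was 0.868 of the range of the group, above the 95% critical value of Dixon's ratio for 4 samples. Of the 18 groups of 4 values examined (the 8 genes and the total counts in both treatments), 1 stood out in this way, where chance gives about 0.9. The log2 fold change of *Cdh11* was 2.21 without this sample and 2.13 with it.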

How the results depend on the processing

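The glmTreat test, against a log2 fold change of 1, called 3 genes. For the 7 genes tested, no other alternative that could test them changed which had an adjusted p under 0.05. The ranges were 2.09 to 2.21 for *Cdh11*, 1.79 to 1.99 for *Alcam*, 1.41 to 1.5 for *Icam1*, 0.92 to 1.12 for *Cdh2*, 0.16 to 0.19 for *Ncam1*, 0.32 to 0.50 for *Cdh13* (adjusted p = 0.0766 to 0.249) and 0.00 to 0.40 for *Vcam1* (adjusted p = 0.29 to 0.996), which had no direction at the lower end and could not be tested where all 8 samples had to exceed 1 CPM. Without vehicle replicate 1, *Cdh2* (0.92) was no longer past 2-fold and 3 genes were. With a replicate block, 5 genes were called higher, 0 lower and 4 past 2-fold, and *Cdh13* had a log2 fold change of 0.44. The block is given for completeness, since samples of the same number did not deviate together (r = -0.0689 to 0.0353, beside -0.0787 to 0.0846 for other pairs). With no filter, 1 gene, *Mcam*, was called lower instead of 0, because it was then tested. With a threshold of 2 on the log2 scale, 1 gene, *Cdh11*, remained of the 4 past 2-fold.

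With the filter loosened to 3 samples above 1 CPM, chosen after *Mcam* was seen to miss the filter and passed by it only through vehicle samples, its log2 fold change was -1.36, given with no test. *Mcam* without a filter had log2 fold changes of -1.53 to -1.05 (adjusted p = 2.04e-05 to 0.00947) with each sample left out. Of the counts of calls in the other lists under the alternatives, 259 stayed within 1.5 times the main count and 11 did not. The 259 include the selectins and polysialyltransferases. Their counts could only be 0 wherever a filter on CPM was used, since none of their genes passed it. Where the shares were taken over reads and not reads per length, *Ncam1* held 85.7% with vehicle and 71.7% with IL-1β, *Icam1* held 11.2% and 22.9%, and *Cdh11* held 22.8% and 49.3%. The values of *Icam1* were over 1.5 times lower than per length, and the 3 shifts kept their direction. With a pseudocount of 1, the genes nearest in pattern shared 0 of 3 with the main choice for *Mcam*, 1 for *Cdh11* and 2 or 3 for the others.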

Other observations

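Vehicle replicate 3 had the highest level of the 4 vehicle samples in 6 of the 8 genes and the lowest in *Cdh13*. Without it the log2 fold changes were 1.5 for *Icam1*, 1.99 for *Alcam*, 1.12 for *Cdh2* and 0.16 for *Ncam1*, all still called, and *Vcam1* (0.40, adjusted p = 0.29) and *Cdh13* (0.32, adjusted p = 0.249) were still not called.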
